A study of Mus musculus with 2 samples.

Results

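Proteins that are secreted, placed in membranes or kept in the secretory pathway enter the endoplasmic reticulum (ER) through the Sec61 translocon. There they are folded by chaperones and disulfide isomerases, and those that fail to fold are sent back to the cytosol for degradation, a route called ER-associated degradation (ERAD). When unfolded proteins build up, the sensors Ern1 (IRE1α), Atf6 and PERK start the unfolded protein response, which raises the transcription of many of these genes. Macrophages depend on this machinery to make lysosomal enzymes, surface receptors and cytokines.

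The genes described here are those chaperones, translocon parts and ERAD components. They were taken by name from the table of expressed genes, as all numbered Pdia, Ssr, Spcs, Edem and Derl genes, the Sec61 genes, Sec62, Sec63 and Sel1l, together with 18 named genes (Hspa5, Hsp90b1, Calr, Canx, Dnajb9, Dnajb11, Dnajc3, Herpud1, Sdf2l1, Hyou1, Creld2, Manf, Xbp1, Atf6, Ern1, Syvn1, Os9 and Sil1). This gave 41 of the 11349 protein-coding genes listed, and the rule itself uses names only, though it was drawn up with earlier results of these data known.

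Expression was measured by RNA sequencing in 2 libraries of primary mouse macrophages, immune cells that engulf particles, which were collected from the abdominal cavity. One library, called the knockout library here, came from cells titled TREM-2-/-. Trem2 is a lipid-sensing receptor of myeloid cells. The genotype label of that sample reads knockdown, and the title was followed. The other library came from wild-type (WT) cells, whose column of values is labelled C57. Cells of both libraries were exposed to TGF-β1, a growth factor of wound repair, for 24 h, so no library shows the cells without it. The labels do not give the animals' age, sex or number or how the cells were purified. The study set out to list the genes that differ with loss of TREM-2, in connection with kidney fibrosis and macrophage exosomes. With 1 library per group there is no replicate check and no test, so every difference below describes these 2 libraries only.

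Values are FPKM, fragment numbers divided by gene length and library size, so levels can be set side by side between genes. The depth was estimated at 12.4 M fragments for the knockout library and 13.5 M for the WT library. Trem2 was at 13.7 FPKM in the knockout library, against 135 FPKM in the WT library. All 10 macrophage markers looked for were listed, among them Cd68 (1512 FPKM in the knockout library and 1169 FPKM in the WT library) and Adgre1, which encodes F4/80 (148 and 133 FPKM in the same order). Past 2-fold, 0 of the 10 stood higher in the knockout library and 3 lower, Itgam (41.2 and 92.7 FPKM), Fcgr1 (14.4 and 55.9 FPKM) and Mrc1 (6.10 and 33.7 FPKM). The fold change of a gene is given as log2((knockout FPKM + 1)/(WT FPKM + 1)). The background is the 9962 genes that averaged 1 FPKM or more. Their median fold change was -0.31, so a typical gene stood lower in the knockout library, and values relative to that median are given where this matters. A ratio is knockout FPKM over WT FPKM, with an exact (Clopper-Pearson) 95% interval where the gene's length was known. The intervals cover counting error only, not the variation between animals or cultures.

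The unfolded protein response acts through short promoter sequences, and those found here are shown because they mark genes with an exact match to a classical control element. Only a fixed window was searched, and genes without a promoter entry could not be searched. The ER stress element is a CCAAT box, 9 bases of any kind (N) and a CCACG box. It was searched on both strands in RefSeq promoters (GRCm38.p6), from 250 bases before to 50 bases after each gene's RefSeq start. That start can differ from the gene positions given below. Of the 41 genes 33 had a promoter in that set, and 8 of these (24.2%) held an exact match, against 0.137% of all 27025 gene symbols with a promoter. The element is known from genes of this kind and the genes were chosen by function. This contrast therefore follows largely from that choice and is not an independent result. The 8 were Hsp90b1, Pdia6, Canx, Calr, Creld2, Dnajc3, Syvn1 and Hspa5. The genes without a promoter entry were Atf6, Derl1, Hyou1, Manf, Sec61a1, Sil1, Spcs3 and Ssr2.

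The stretches around the element are printed 5′ to 3′ on the gene's own strand for Hsp90b1, the gene with 2 matches, and for the 4 most highly expressed genes with 1. Capitals mark the element, which reads CGTGG then ATTGG where it lies on the opposite strand.
Hsp90b1, chr10:86705508-86705681, minus strand: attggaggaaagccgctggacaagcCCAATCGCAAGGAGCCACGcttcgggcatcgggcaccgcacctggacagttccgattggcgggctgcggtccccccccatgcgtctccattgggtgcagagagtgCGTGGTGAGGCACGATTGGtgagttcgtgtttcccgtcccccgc
Calr, chr8:84847050-84847118, minus strand: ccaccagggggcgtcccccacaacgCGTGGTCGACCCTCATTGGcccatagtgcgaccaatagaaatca
Canx, chr11:50325775-50325843, minus strand: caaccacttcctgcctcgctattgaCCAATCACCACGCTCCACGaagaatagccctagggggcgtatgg
Hspa5, chr2:34772000-34772068, plus strand: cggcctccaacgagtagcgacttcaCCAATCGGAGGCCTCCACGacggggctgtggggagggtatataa
Pdia6, chr12:17266466-17266534, plus strand: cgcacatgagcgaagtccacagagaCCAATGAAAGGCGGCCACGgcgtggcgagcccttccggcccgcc

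The other matches are given as the element alone, read on the strand that holds it, with the boxes in capitals and the spacer in lower case. Herpud1 holds the related ER stress element II, which is ATTGG, 1 base of any kind and CCACG, from 52 to 42 bases before its RefSeq start. That element was found in 0.0444% of symbols and in 2 of the 33 genes, the second being Dnajb11, where it lies just past the start. The limit given for the first element holds for this contrast too.
Creld2: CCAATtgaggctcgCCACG
Dnajc3: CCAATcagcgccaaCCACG
Syvn1: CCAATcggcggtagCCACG
Herpud1: ATTGGgCCACG
The core of the UPR element, TGACGTGG, was in none of the 33 promoters and in 0.714% of all symbols. No matches overlapped each other. They are descriptions of the letters in a fixed window and do not show binding.

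As a group the 41 genes stood higher in the knockout library than most genes did. Of the 41, all of which reached a mean of 1 FPKM, 29 were higher in the knockout library by any amount, or 70.7%, where 31.8% of all genes were. The median fold change was 0.15 over the 41 genes, 0.45 above the median of all genes. Most differences were small. At least 2-fold higher were 2 genes, or 4.88%, where 3.48% of all genes were, and at least 2-fold lower was 1, or 2.44%, where 13.7% were. Once that median was subtracted, 6 of the 41, or 14.6%, were past 2-fold on the higher side (background 7.66%) and 0 on the lower side (background 6.57%). As deposited, the share past 2-fold on the higher side was thus near that of the whole table, and most of the 29 higher genes differed by less.

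These genes are well expressed, which bears on that comparison, because highly expressed genes as a whole stood less low in the knockout library. The median of the 41 means was 38.8 FPKM, against 6.78 FPKM for all tested genes. Among the 2143 genes that averaged 20 FPKM or more, the median fold change was -0.06 and 46.4% were higher in the knockout library. Of the 28 described genes above that level 22 were higher and 6 lower, with a median of 0.26. At this level 1 of the 28 was at least 2-fold higher (background 5.93%) and 1 at least 2-fold lower (background 9.19%).

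Of the 35 genes with a known length, the counting interval of the ratio lay above 1 in 21, where 23.0% of all genes did so, below 1 in 8, where 57.9% did, and included 1 in 6. Set against the median ratio of all genes in place of 1, it lay above in 31 (background 37.2%) and below in 4 (background 41.0%). These background shares cover genes of all expression levels and were not matched to the levels of the 35 genes. Depth was not limiting for most of them, with a median of 1792 estimated fragments in the knockout library and 1698 in the WT library. Sec61a2 had the fewest, 148 in the knockout library and 142 in the WT library. Directions near 0 depended on the scaling. Under the deposited values and 3 other scalings 21 genes stayed higher and 5 stayed lower (Syvn1, Xbp1, Hspa5, Herpud1 and Spcs1), while 15 changed sign. No share over all genes is given for this count, so it does not show how the 41 compare with other genes.

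Summed over the 41 genes, expression came to 2891 FPKM in the knockout library and 2299 FPKM in the WT library, 0.855% and 0.761% of the summed FPKM of each. A whole culture's RNA was measured, so fewer cells of a type and less RNA per cell cannot be told apart. Markers of other cell types were looked for, since cells such as fibroblasts, which secrete collagen, have much ER of their own. All 8 fibroblast markers looked for were listed, with a summed level of 408 FPKM in the knockout library and 237 FPKM in the WT library. Of these Col1a1 (171 and 48.1 FPKM), Col1a2 (108 and 50.6 FPKM) and Thy1 (3.80 and 0.336 FPKM) were past 2-fold on the higher side and Pdgfra (6.0 and 29.3 FPKM) on the lower side. Within 2-fold, Dcn was lower (48.9 and 71.4 FPKM). Col3a1 (66.7 and 34.2 FPKM), Lum (1.97 and 1.64 FPKM) and Pdgfrb (1.57 and 1.35 FPKM) were higher within 2-fold. The fibroblast markers thus went both ways, and their higher sum came mostly from collagens. Of 11 plasma cell and B cell markers 5 were listed, with a summed level of 85.6 FPKM in the knockout library and 51.9 FPKM in the WT library, most of it Sdc1 (74.4 and 40.8 FPKM). The defining markers Jchain, Mzb1, Tnfrsf17 and Ms4a1 were not among the listed genes. Summed markers of other cells were lower in the knockout library for mesothelial cells (4.79 FPKM in the knockout library and 17.1 FPKM in the WT library, 7 of 7 listed, 2 at least 2-fold lower), mast cells (2.67 and 10.9 FPKM, 3 of 6 listed, 3 lower) and endothelial cells (1.41 and 5.92 FPKM, 2 of 5 listed, 1 lower). Neutrophil markers summed to 18.3 FPKM in the knockout library and 33.4 FPKM in the WT library (3 of 6 listed), and 1 of 9 T and NK cell markers was listed, Lck (1.76 and 0.846 FPKM). The part of such cells in the differences was not tested.

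**Figure D1:**
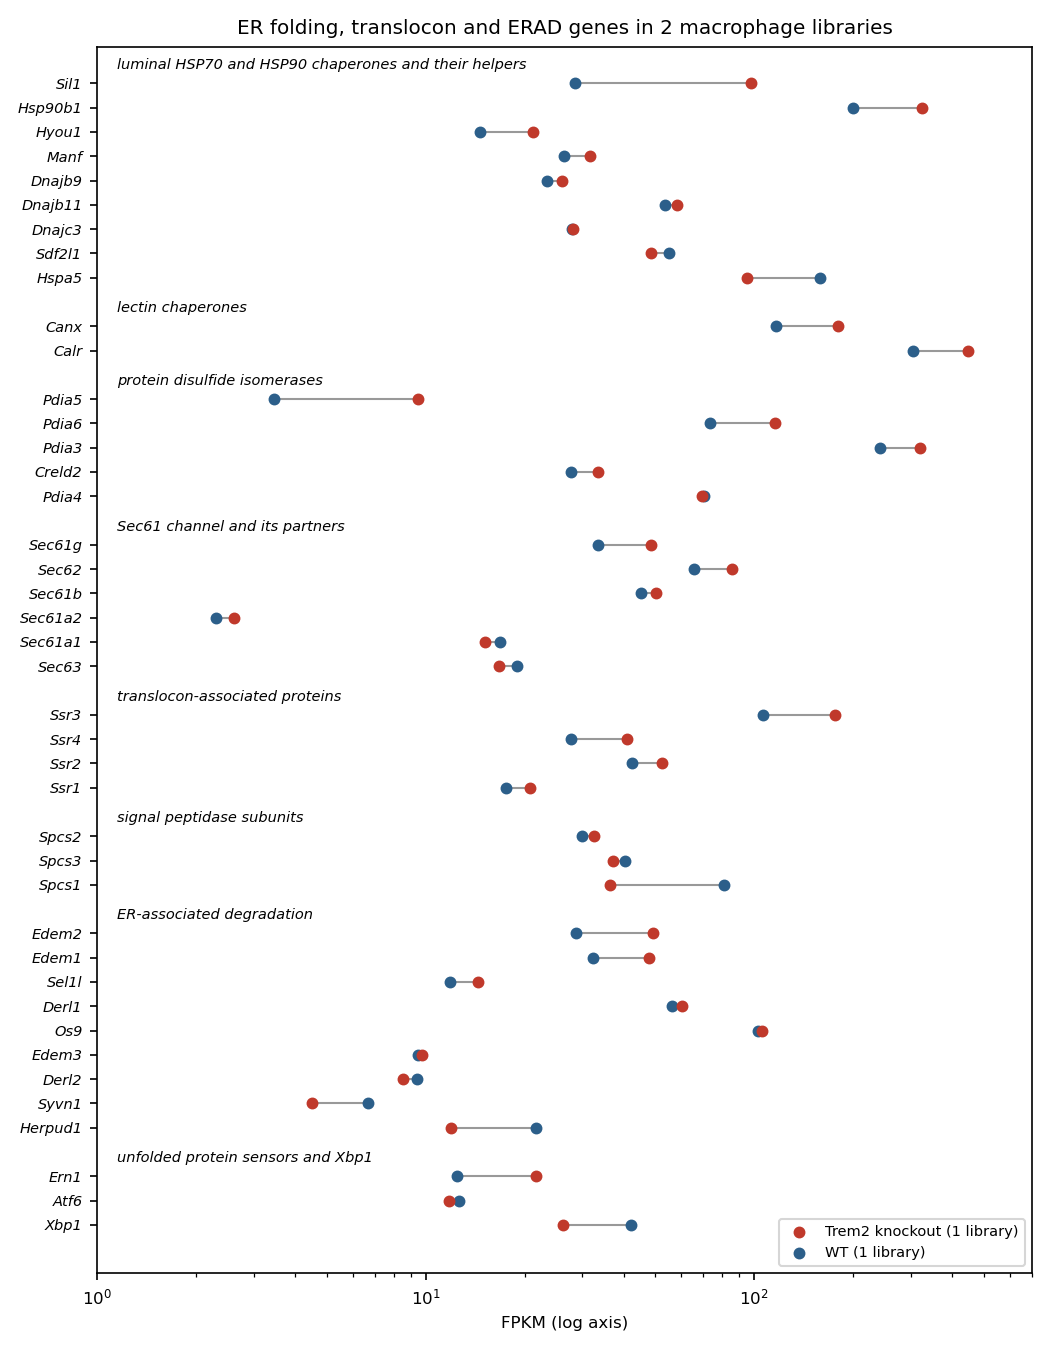
Expression of the 41 genes by role, in FPKM on a log axis, with a red point for the Trem2 knockout library and a blue point for the WT library, 1 library each. Red lies right of blue for 29 genes, furthest for Sil1 (97.7 and 28.4 FPKM), and left of blue for 12, furthest for Spcs1 (36.5 and 81.0 FPKM).

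Among the luminal chaperones, Hspa5 and Hsp90b1 went in opposite directions. Hspa5 encodes BiP, the HSP70 of the ER, which binds unfolded chains and also holds the stress sensors inactive. It lies on chromosome 2 from 34771970 to 34777547 (mm10, plus strand, ENSMUSG00000026864.13) and was at 95.3 FPKM in the knockout library, against 159 FPKM in the WT library. The ratio was 0.60 (interval 0.580 to 0.621) and the fold change -0.73, which is -0.43 once the median of all genes is subtracted. By abundance Hspa5 ranked 9 among the 41 genes in the knockout library and 4 in the WT library. Hsp90b1 encodes GRP94, the HSP90 of the ER, which folds Toll-like receptors and integrins. It lies on chromosome 10 from 86690209 to 86705509 (mm10, minus strand, ENSMUSG00000020048.13) and was at 325 FPKM in the knockout library, against 200.3 FPKM in the WT library, a ratio of 1.62 (interval 1.58 to 1.66).

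Sil1 showed the largest fold change of the 41 genes, at 97.7 FPKM in the knockout library and 28.4 FPKM in the WT library, a ratio of 3.44. Sil1 is a nucleotide exchange factor that releases ADP from BiP, and 0.863% of all tested genes had a higher fold change. Its length in the annotation used did not match, so it has no counting interval. Hyou1, a large HSP70 that serves BiP in the same way, was at 21.2 FPKM in the knockout library and 14.6 FPKM in the WT library, a ratio of 1.45 (interval 1.35 to 1.56). Both exchange factors were therefore higher while BiP itself was lower.

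The J-domain partners that deliver clients to BiP differed less. Dnajb9 was at 26.1 FPKM in the knockout library and 23.4 FPKM in the WT library, and Dnajb11 at 58.0 and 53.3 FPKM. Dnajc3 was at 28.1 FPKM in the knockout library and 27.9 FPKM in the WT library, with an interval of the ratio from 0.944 to 1.07. Sdf2l1, which works with Dnajb11, was at 48.7 FPKM in the knockout library and 54.9 FPKM in the WT library. Manf, a secreted protein that binds BiP, was at 31.7 FPKM in the knockout library and 26.4 FPKM in the WT library. All of these but Manf changed sign with the scaling. Manf overlaps Dcaf1 on the opposite strand (2.04 FPKM in the knockout library and 1.83 FPKM in the WT library). It also overlaps Rbm15b on the same strand (1.11 and 3.80 FPKM in the same order), so reads there may be shared. Of the 9 luminal chaperones and helpers 7 were higher in the knockout library and 2 lower, with a median fold change of 0.15. Of all tested genes 31.8% were higher.

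Calr and Canx encode calreticulin and calnexin, the lectin chaperones that hold glycoproteins by their sugars during folding. Calr was the most abundant of the 41 genes in both libraries, at 448 FPKM in the knockout library and 304 FPKM in the WT library, a ratio of 1.47 (interval 1.44 to 1.51). Canx was at 179 FPKM in the knockout library and 116 FPKM in the WT library, a ratio of 1.54 (interval 1.5 to 1.59). Pdia3, the disulfide isomerase that works with both, was at 318 FPKM in the knockout library and 241 FPKM in the WT library, a ratio of 1.32 (interval 1.28 to 1.35). These 3 genes of the glycoprotein folding cycle thus all stood higher in the knockout library, at ratios of 1.32 to 1.54.

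Pdia6, an isomerase that also acts on the sensor Ern1, was at 115 FPKM in the knockout library and 73.4 FPKM in the WT library, a ratio of 1.57 (interval 1.51 to 1.64). Pdia5, an isomerase linked in human cells to Atf6 activation, was low but was 1 of the 2 genes at least 2-fold higher, at 9.45 FPKM in the knockout library and 3.44 FPKM in the WT library, a ratio of 2.75 with no interval for want of a matched length. Pdia4 was at 69.2 FPKM in the knockout library and 70.1 FPKM in the WT library, with an interval of the ratio from 0.929 to 1.05. Creld2, a secreted protein made under ER stress, was at 33.3 FPKM in the knockout library and 27.6 FPKM in the WT library. Of the 5 genes in this group 4 were higher, where 31.8% of all tested genes were. Pdia4 was level within counting error as deposited, although it too stood 0.29 above the median of all genes.

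Levels relative to Hspa5 within a library do not depend on how the libraries were scaled. Calr was at 4.70 times the Hspa5 level in the knockout library and 1.91 times in the WT library, and Hsp90b1 at 3.41 and 1.26 times. Canx was at 1.88 times the Hspa5 level in the knockout library and 0.732 times in the WT library, so it stood above Hspa5 in the knockout library and below it in the WT library, and Pdia6 did the same (1.21 and 0.462 times). Sil1 stood at 1.03 times the Hspa5 level in the knockout library and 0.179 times in the WT library. Each of the 13 chaperones and isomerases plotted was higher relative to Hspa5 in the knockout library. Hspa5 itself was among the lowest of the 41 genes, and 75.3% of all tested genes had a higher fold change than Hspa5, so this direction was shared by most genes.

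**Figure D2:**
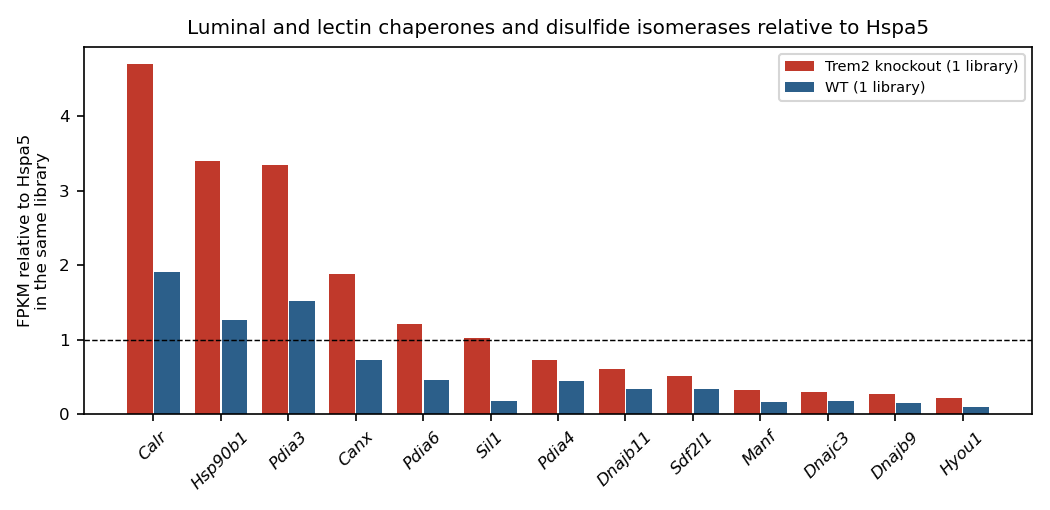
FPKM of 13 chaperones, co-chaperones and disulfide isomerases divided by the FPKM of Hspa5 in the same library, with a red bar for the Trem2 knockout library and a blue bar for the WT library to its right, 1 library each. The dashed line marks the Hspa5 level, and every red bar exceeds its blue neighbour, Calr at 4.70 and 1.91 and Hyou1 at 0.222 and 0.0919. The divisor Hspa5 was lower in the knockout library, and 75.3% of all tested genes had a higher fold change than it.

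The 8 genes whose promoters hold the ER stress element did not move as a block. Hsp90b1, Pdia6, Canx, Calr, Creld2 and Dnajc3 were higher in the knockout library, with Dnajc3 within counting error, and Syvn1 and Hspa5 were lower. Their median fold change was 0.41, and that of the 25 genes with a promoter but no match was 0.15. Hspa5 and Pdia6, each with 1 match on its own strand at 65 to 47 and 98 to 80 bases before the RefSeq start, stood at fold changes of -0.73 and 0.65. The printed Hspa5 stretch lies inside the gene span given above (34771970 to 34777547), which begins upstream of the RefSeq start. The genes with the second element went both ways too, Herpud1 at -0.80 and Dnajb11 at 0.12.

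The Sec61 channel lets new chains into the ER. Its pore subunit Sec61a1 was at 15.2 FPKM in the knockout library and 16.8 FPKM in the WT library, a ratio of 0.904 (interval 0.839 to 0.975). Relative to the median of all genes its fold change was 0.17, and its sign changed with the scaling. The paralog Sec61a2, whose reads could be shared with Sec61a1, was at 2.61 and 2.31 FPKM. Sec61a2 also overlaps Nudt5 on the opposite strand (2.46 FPKM in the knockout library and 4.91 FPKM in the WT library). The small subunits were more abundant, Sec61b at 50.3 FPKM in the knockout library and 45.3 FPKM in the WT library, and Sec61g at 48.6 and 33.5 FPKM. Sec61g had a ratio of 1.45 (interval 1.34 to 1.57). The most abundant of the 3 core subunits thus exceeded the least abundant by 3.31-fold in the knockout library and 2.70-fold in the WT library.

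Sec62 and Sec63 help short or weakly targeted chains through the channel, and Sec63 also recruits BiP. Sec62 was at 85.4 FPKM in the knockout library and 65.4 FPKM in the WT library, a ratio of 1.31 (interval 1.25 to 1.36). Sec63 was at 16.8 FPKM in the knockout library and 19.0 FPKM in the WT library, a ratio of 0.883 (interval 0.829 to 0.939). The interval for Sec63 lay below 1 as deposited, and its fold change relative to the median of all genes was 0.14. Over the 6 genes of the channel and its partners the median fold change was 0.14, with 4 higher (background 31.8%) and 2 lower.

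The translocon-associated protein complex, which sits beside the channel and aids the entry of some chains, was higher in the knockout library in all 4 subunits (background 31.8%). Ssr3 was at 176 FPKM in the knockout library and 106 FPKM in the WT library, a ratio of 1.65 (interval 1.6 to 1.71). Ssr4 was at 41.0 FPKM in the knockout library and 27.7 FPKM in the WT library, a ratio of 1.48 (interval 1.37 to 1.59). Ssr2 was at 52.2 and 42.5 FPKM in the same order, and Ssr1 at 20.8 and 17.6 FPKM. All 4 stayed higher under each of the other scalings, the median fold change was 0.42, and the summed level of the complex was 290 FPKM in the knockout library and 194 FPKM in the WT library.

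Signal peptidase cuts the targeting sequence off chains that enter the ER, and its subunits differed from each other. Spcs1, an accessory subunit, was the single gene of the 41 at least 2-fold lower as deposited. It lies on chromosome 14 from 30999826 to 31001672 (mm10, minus strand, ENSMUSG00000021917.16) and was at 36.5 FPKM in the knockout library, against 81.0 FPKM in the WT library, a ratio of 0.451 (interval 0.412 to 0.493). Less the median of all genes its fold change was -0.82, within 2-fold. Spcs2 was at 32.4 FPKM in the knockout library and 29.9 FPKM in the WT library, and Spcs3 at 37.1 and 40.5 FPKM, a ratio of 0.917 (interval 0.857 to 0.981). The 3 subunits therefore lay within 1.14-fold of each other in the knockout library and within 2.71-fold in the WT library. Spcs3 stood 0.18 above the median of all genes, and its direction, like that of Spcs2, changed with the scaling. Spcs1 overlaps Glt8d1 on the opposite strand, which was far lower, at 5.17 FPKM in the knockout library and 7.57 FPKM in the WT library.

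ERAD begins when lectins and mannosidases pick glycoproteins that have stayed too long. Edem2, linked to the first mannose cut, was at 49.3 FPKM in the knockout library and 28.7 FPKM in the WT library, a ratio of 1.72 (interval 1.6 to 1.84). Edem1, which acts after it, was at 47.9 FPKM in the knockout library and 32.4 FPKM in the WT library, a ratio of 1.48 (interval 1.41 to 1.55). Edem3 was at 9.78 FPKM in the knockout library and 9.50 FPKM in the WT library, with an interval of the ratio from 0.931 to 1.14. Os9, a lectin that hands such glycoproteins on, was at 106 FPKM in the knockout library and 103 FPKM in the WT library, also within counting error as deposited.

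The membrane complex that carries these proteins out is built around the ubiquitin ligase Syvn1 (HRD1) and its scaffold Sel1l. Sel1l was at 14.4 FPKM in the knockout library and 11.9 FPKM in the WT library, a ratio of 1.21 (interval 1.12 to 1.3). Syvn1 went the other way, at 4.52 FPKM in the knockout library and 6.69 FPKM in the WT library, a ratio of 0.676. Herpud1, an adaptor of the same complex, was at 12.0 FPKM in the knockout library and 21.6 FPKM in the WT library, a ratio of 0.553 (interval 0.485 to 0.631). As deposited, the ligase and its adaptor thus stood lower and the scaffold higher, and all 3 kept their direction under every scaling. With the all-gene median subtracted, fold changes came to -0.17 for Syvn1, -0.50 for Herpud1 and 0.56 for Sel1l. Syvn1 therefore lay only a little below the typical gene, with 60.7% of tested genes at a higher fold change. Syvn1 has no counting interval, for want of a matched length. Derl1 and Derl2, derlins that help form the exit channel, were near level, Derl1 at 60.3 FPKM in the knockout library and 56.3 FPKM in the WT library and Derl2 at 8.52 and 9.41 FPKM. Both changed sign with the scaling. Derl2 overlaps Mis12 (6.99 FPKM in the knockout library and 14.5 FPKM in the WT library) and Syvn1 overlaps Mrpl49 (10.8 and 16.4 FPKM), each on the opposite strand. Whether the authors' counting used strand is not stated in the sources used here, so reads in these overlaps may be shared. The median fold change of the 9 ERAD genes was 0.04, with 6 higher (background 31.8%) and 3 lower.

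Among the regulators, Ern1 and Xbp1 stood on opposite sides. Ern1 encodes IRE1α, the sensor whose nuclease removes an intron from Xbp1 mRNA so that the XBP1 transcription factor can be made. It was at 21.6 FPKM in the knockout library and 12.5 FPKM in the WT library, a ratio of 1.73 (interval 1.62 to 1.86). Xbp1 lies on chromosome 11 from 5520659 to 5525893 (mm10, plus strand, ENSMUSG00000020484.18) and was at 26.1 FPKM in the knockout library, against 42.1 FPKM in the WT library, a ratio of 0.620 (interval 0.574 to 0.669). Less the median of all genes, the fold changes were 1.05 for Ern1 and -0.36 for Xbp1. A value per gene does not separate spliced from unspliced Xbp1. Atf6, a sensor that is cut in the Golgi to free a transcription factor, was at 11.8 FPKM in the knockout library and 12.6 FPKM in the WT library, a ratio of 0.934 (interval 0.867 to 1.005).

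**Figure D3:**
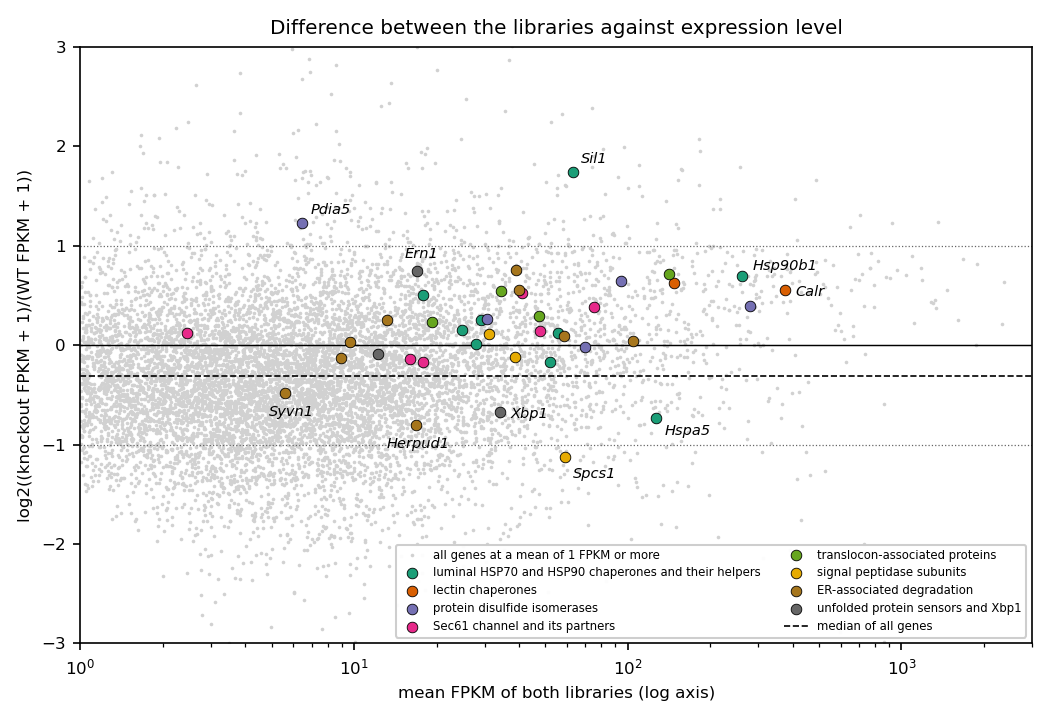
Fold change, log2((knockout FPKM + 1)/(WT FPKM + 1)), against the mean FPKM of both libraries on a log axis, with the 9962 tested genes in grey and the 41 genes coloured by role. The dashed line is the median of all genes (-0.31), dotted lines mark 2-fold, and 47 grey genes past the axis limits are not drawn. Of the coloured genes 36 lie above the dashed line and 5, which are Syvn1, Xbp1, Hspa5, Herpud1 and Spcs1, lie below it.

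Genes that work before, beside and after these 41 were read as 10 lists, chosen by function. Their counts are to be read against all tested genes, of which 3.48% were at least 2-fold higher and 13.7% at least 2-fold lower. Over all lists, 15 of 189 genes passed 2-fold on the higher side and 10 on the lower side. The oligosaccharyltransferase, which attaches sugars to chains as they enter, had a median fold change of 0.29, which is 0.60 above that of all genes, with 2 of 12 members at least 2-fold higher and 0 lower. Its small subunit Ost4 was at 123 FPKM in the knockout library and 42.0 FPKM in the WT library, Tmem258 at 39.7 and 16.7 FPKM and the catalytic Stt3a at 38.6 and 23.4 FPKM. Thiol oxidation enzymes and prolyl isomerases of the ER had a median of 0.28, with 2 of 26 higher, Fkbp11 (18.5 and 8.31 FPKM) and Fkbp7 (17.7 and 8.24 FPKM), and 1 lower, Tmx3 (18.6 and 38.8 FPKM). In the list of glycan trimming 1 of 8 was higher, the cargo lectin Lman1 (35.8 and 17.2 FPKM), and 0 lower, with a median of -0.07.

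Chaperones that escape to the Golgi are brought back by KDEL receptors, which bind the tail of proteins such as BiP, GRP94 and calreticulin. All 3 receptors were higher in the knockout library. Kdelr1 was at 72.1 FPKM in the knockout library and 30.2 FPKM in the WT library, a ratio of 2.39, Kdelr2 at 64.3 and 39.6 FPKM, and Kdelr3 at 11.6 and 4.39 FPKM. Tmed2, a cargo receptor that cycles between ER and Golgi, was at 155 FPKM in the knockout library and 38.3 FPKM in the WT library. These lie in the list of the COPII coat and ER exit, in which 3 of 20 were at least 2-fold higher (background 3.48%) and 0 lower (background 13.7%), with a median of 0.15.

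The PERK branch of the response slows translation and works through Atf4. In the list of that branch and other regulators 6 of 22 tested genes were lower by 2-fold or more (background 13.7%) and 0 higher (background 3.48%). Once the median of all genes was subtracted, 5 were lower (background 6.57%). The median of the list, -0.41, was close to that of all genes, at -0.11 relative to it. Chac1, a glutathione-degrading enzyme, was at 0.308 FPKM in the knockout library and 12.5 FPKM in the WT library. The pseudokinase Trib3 was at 2.47 and 28.0 FPKM in the same order, the stress protein Sesn2 at 1.47 and 15.5 FPKM, and Nfyc, a subunit of the factor that binds CCAAT boxes, at 1.34 and 9.63 FPKM. Its partner subunits differed less, Nfya at 8.91 and 12.6 FPKM and Nfyb at 4.71 and 5.42 FPKM. Atf4, the transcription factor of this branch, was at 103 FPKM in the knockout library and 294 FPKM in the WT library. Ppp1r15b, also past 2-fold on the lower side, was at 11.4 and 26.7 FPKM in the same order. Other central genes of the branch differed less, Ddit3 (CHOP) at 79.3 FPKM in the knockout library and 98.0 FPKM in the WT library, Ppp1r15a (GADD34) at 24.9 and 21.7 FPKM and Eif2ak3, which encodes PERK, at 3.03 and 3.60 FPKM. These, Atf4, Ppp1r15b, Nfya and Nfyb were named after their values were seen.

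The remaining lists differed among themselves. The signal recognition particle and its receptor had 0 of 9 members past 2-fold and a median of 0.07, with Srp68 at 39.7 FPKM in the knockout library and 28.8 FPKM in the WT library. Membrane insertion factors had 0 of 19 past 2-fold on the log2(FPKM + 1) scale and a median of -0.24. Emc4, at 24.1 and 48.5 FPKM, stood just within 2-fold on that scale and just past it as a plain ratio of FPKM (0.497). Further ERAD components had 1 of 36 higher, the ubiquitin-conjugating enzyme Ube2g2 (31.7 and 11.9 FPKM), and 2 lower, Ubxn8 (2.0 and 11.5 FPKM) and Erlin1 (3.78 and 8.63 FPKM), with a median of -0.17. ER-phagy receptors had 1 of 8 higher, Retreg2 (34.3 and 16.2 FPKM), and 1 lower, Retreg3 (3.70 and 18.6 FPKM), with a median of -0.21. Chaperones of the cytosol and mitochondria had 5 of 29 higher and 0 lower, with a median of 0.47, led by Hspa1b and Hspa1a, near-identical genes that can share reads (483 and 2.30 FPKM, and 486 and 2.42 FPKM).

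**Figure D4:**
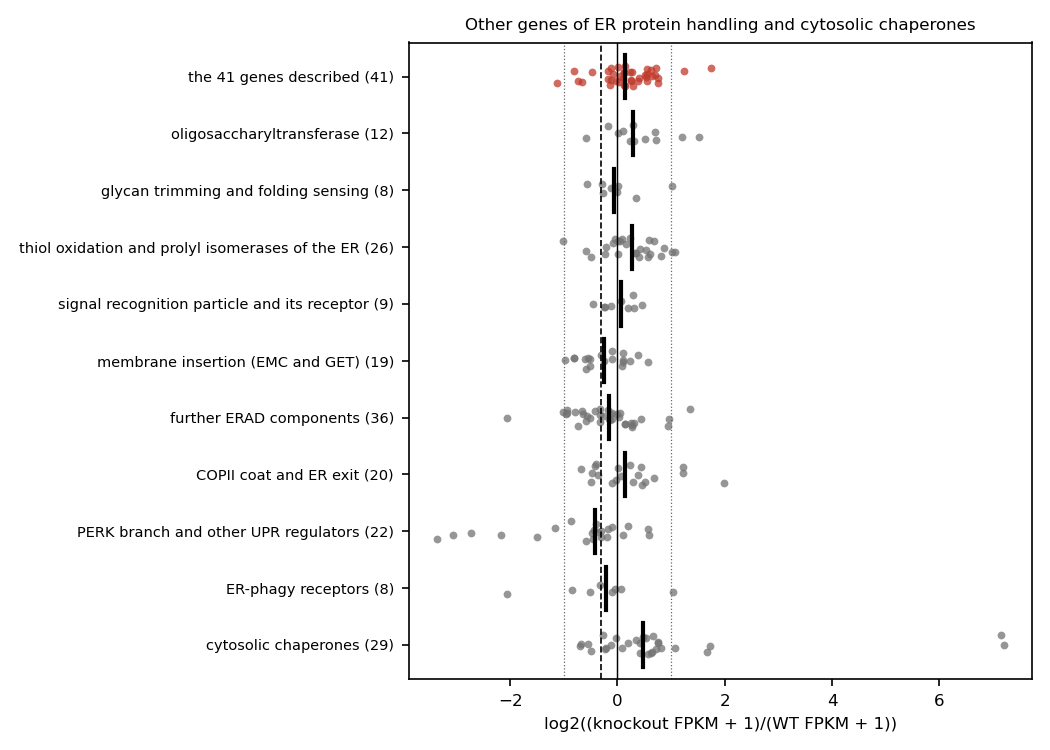
Fold change, log2((knockout FPKM + 1)/(WT FPKM + 1)), of each gene in the group of 41 (red) and in 10 further lists (grey), with the number of tested genes in brackets and a black bar at each median. The dashed line is the median of all genes (-0.31) and dotted lines mark 2-fold. The median of the 41 genes (0.15) lies right of the dashed line and that of the PERK list (-0.41) left of it.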

How the data were processed

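RNA from the 2 libraries, 1 per group, was made into strand-marked (dUTP) libraries, per the labels' protocols. The authors deposited FPKM per gene, per the file headers, and the submitters' processing notes name the build mm10. Aligner, quantifier and annotation: not given in the sources used here. Every listed gene reached 0.501 FPKM in at least 1 library. Sample titles gave the groups. The knockout's genotype label says knockdown, and its title, which marks a null allele, was followed.

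IDs were matched to GENCODE release M21 by version and position (9914 of 11349, and 35 of the 41 genes). FPKM times merged exon length was a whole number of steps, to within 0.1, in 68.0% of 103 low knockout values and 56.7% of 67 WT values. These came from single-transcript genes, and chance gives 20% for a step fixed beforehand. The step was the best fit to these same values within a set range, so 20% understates chance here. Taking 300 steps as 1 fragment, because 5 of 15 knockout values and 2 of 4 WT values up to 2 fragments lay just under 300 or 600 steps, gave the depths, which are estimates used for intervals only. In 99.9% of 8969 genes with several transcripts that product had 6 decimals in both libraries, and in 0.959% when 1 base was added to the length, which is why merged length was used.

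The 41 genes and all lists were chosen with earlier results of these data known. Ratios and intervals were given for 9 fixed genes and for the 2 genes of each role with the largest fold change, and some others were added. From each list up to 4 genes, those with the largest fold change among genes averaging 5 FPKM, could be named. Alternatives were pseudocounts of 0.1 and 5 FPKM, other filters, 3 scalings (a common total, the median of ratios, a trimmed mean of log ratios) and thresholds of 1.5-fold and 4-fold. The filter at a mean of 20 FPKM was chosen after seeing the data. Fold changes, scalings and intervals were tested on simulated data. Software was numpy 2.4.6, scipy 1.17.1, pandas 2.3.3 and matplotlib 3.10.9 under Python 3.11.15.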

Additional observations from a re-analysis of the deposited data

How the results depend on the processing

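No paired analysis was possible because there is only 1 library of each genotype. The numbers of the 41 genes at least 2-fold higher and lower, 2 and 1 as deposited, were 6 and 0 when scaled by the median of ratios, 8 and 0 when scaled by the trimmed mean of log ratios, 8 and 4 at 1.5-fold and 0 and 0 at 4-fold. With a pseudocount of 5 FPKM, and with genes under a mean of 20 FPKM left out, 1 was higher and 1 lower. Their median fold change, 0.15 as deposited, was 0.0085 after rescaling to the same summed FPKM, 0.46 with the median of ratios, 0.54 with the trimmed mean and 0.26 at a mean of 20 FPKM. It stayed 0.31 to 0.53 above the median of all genes under each of the settings run for it. For all genes the numbers higher and lower, 347 and 1364 as deposited, were 758 and 816 with the median of ratios, 905 and 708 with the trimmed mean, 995 and 3254 at 1.5-fold, 51 and 113 at 4-fold, 174 and 394 with a pseudocount of 5 FPKM and 127 and 197 at a mean of 20 FPKM. The number lower was 2075 with a pseudocount of 0.1 FPKM and 746 at a mean of 5 FPKM. The median of all genes, -0.31 as deposited, was -0.18 with a pseudocount of 5 FPKM, -0.44 after rescaling to the same total, -0.040 with the median of ratios, 0.027 with the trimmed mean and -0.055 at a mean of 20 FPKM. The choice between scalings cannot be settled from these values. No gene of the 41 that was past 2-fold changed sign. With 1 library per group, counting error is the only error that could be estimated.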
